A study of Homo sapiens with 6 samples.

Results

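The genes described here are 8 metallothioneins (MT1X, MT2A, MT1E, MT1F, MT1G, MT1M, MT1A and MT1H), the zinc exporter SLC30A1 and the zinc sensor MTF1. They were taken by NCBI Gene ID, and all 10 were found among the 25702 identifiers of each count table. The set was chosen by a value of these data, the log2 fold change of MT1X between the MXD3 and control libraries, to which its gene family and zinc response genes were added, so the members' values in that comparison are a description with no test. The RNA came from K562 cells, an established line derived from chronic myeloid leukaemia, after transient transfection with a pCMV-HA plasmid. This plasmid was empty in the control group (EV) and expressed MXD3 or the fusion STIM1::MXD3 in the others. The 3 groups therefore share the cell line, the transfection and the plasmid backbone, and none received another agent. Each group had 2 libraries, numbered replicate 1 and replicate 2, which the study describes as independent transfections. MXD3 is a repressor that opposes the transcription factor MYC. STIM1::MXD3 keeps the DNA-binding domain of MXD3 but not its repression domain, in whose place stands the endoplasmic reticulum signal peptide of STIM1. The plasmids were expressed transiently and no sorting of transfected cells is stated, so every library may also hold RNA of cells without plasmid.

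Metallothioneins are small, cysteine-rich proteins that bind zinc, copper and cadmium and buffer the free metal in the cell. MTF1 is the transcription factor that senses zinc. When zinc rises, MTF1 binds short DNA sequences called metal response elements before the metallothionein genes and SLC30A1, and transcription of these genes increases. SLC30A1 (also ZnT1) carries zinc out of the cell across the plasma membrane. Metallothioneins, MT2A among them, are also induced by cadmium, oxidants and glucocorticoids.

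In GRCh37, the build of the alignments (hg19), the 8 metallothionein genes lie in 75613 bases of chromosome 16, from position 56642496 (the start of MT2A) to position 56718108 (the end of MT1X), with MT1G on the minus strand and the other 7 on the plus strand. SLC30A1 lies on the minus strand of chromosome 1 from position 211744910 to 211752503, and MTF1 on the same strand from 38275246 to 38325264. To show the element that MTF1 is known to bind, the 250 bases before the annotated start were taken from the RefSeq promoter table (GRCh38.p14), which held 5 of the 10 members, and each was found exactly once in GRCh37. The sequences of the members with a match are given 5′ to 3′ on the strand of the gene, with capitals marking the core of the metal response element (TGCACNC or TGCGCNC, either strand).
MT2A (chr16:56642246-56642495): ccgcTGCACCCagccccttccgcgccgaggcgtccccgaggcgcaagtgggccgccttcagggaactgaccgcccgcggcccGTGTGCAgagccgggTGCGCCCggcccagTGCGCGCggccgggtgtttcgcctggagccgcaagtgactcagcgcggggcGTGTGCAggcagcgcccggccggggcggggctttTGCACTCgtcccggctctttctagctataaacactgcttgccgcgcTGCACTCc
MT1X (chr16:56716132-56716381): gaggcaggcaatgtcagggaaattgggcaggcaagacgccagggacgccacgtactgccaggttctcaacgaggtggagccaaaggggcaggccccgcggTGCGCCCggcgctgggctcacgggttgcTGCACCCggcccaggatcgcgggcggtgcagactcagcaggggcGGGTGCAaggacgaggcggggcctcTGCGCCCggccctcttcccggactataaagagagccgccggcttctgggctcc
MT1H (chr16:56703476-56703725): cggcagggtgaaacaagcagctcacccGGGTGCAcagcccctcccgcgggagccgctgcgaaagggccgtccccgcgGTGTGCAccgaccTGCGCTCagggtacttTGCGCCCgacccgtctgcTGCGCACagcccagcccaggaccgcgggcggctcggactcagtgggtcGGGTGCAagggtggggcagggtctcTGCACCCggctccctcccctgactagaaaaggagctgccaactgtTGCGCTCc
SLC30A1 (chr1:211752504-211752753, minus strand): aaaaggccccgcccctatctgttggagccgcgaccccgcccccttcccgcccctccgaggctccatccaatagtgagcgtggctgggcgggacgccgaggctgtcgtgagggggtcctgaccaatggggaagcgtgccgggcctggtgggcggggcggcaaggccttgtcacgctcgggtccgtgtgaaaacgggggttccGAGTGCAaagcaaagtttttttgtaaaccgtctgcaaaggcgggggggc
The window of MT2A held 7 core matches, that of MT1X 4, that of MT1H 8 and that of SLC30A1 1, and the window of MTF1 held 0, with no overlap between matches. Among all 35116 promoter windows of this length, 24.8% held at least 1 match and 1.58% held 3 or more. The E-box CACGTG, the sequence that MYC and MXD3 bind together with MAX, had 0 matches in each of the 5 windows, against 6.34% of all windows with a match. These counts describe letters in a window and no binding was measured. The windows of MT1E, MT1F, MT1G, MT1M and MT1A were not analysed here.

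**Figure D1:**
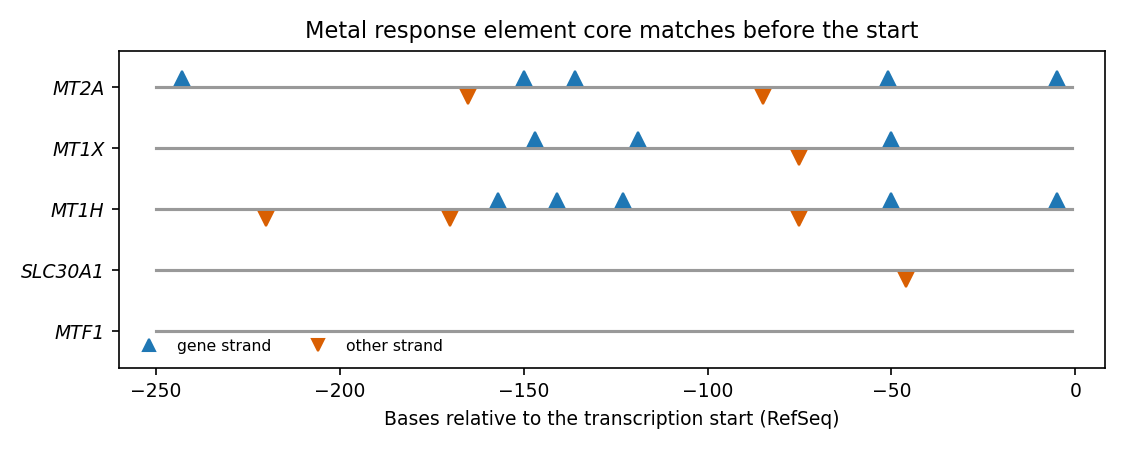
Matches to the metal response element core in the 250 bases before the start of 5 members, with the distance from the start on the x axis in bases and 1 line per gene; triangles pointing up are matches on the gene strand and those pointing down on the other strand. MT2A (7 matches), MT1X (4) and MT1H (8) have several, SLC30A1 has 1 and MTF1 has 0.

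Library totals ran from 53048343 to 63835779 counts, and 17375 to 17836 genes were detected per library. As a check of the labels, MXD3 was higher than in EV by 7.80 on the log2 scale in the libraries labelled MXD3 and by 7.51 in those labelled STIM1::MXD3. The 10 markers of erythroid K562 cells summed to between 6876 and 9584 counts-per-million (CPM, scaled by TMM), and 5 markers of T cells, B cells, fibroblasts and hepatocytes to between 3.67 and 4.57 CPM. Genes were kept for testing by their counts over the libraries, which left 15431 genes and 8 of the 10 members, among them 6 of the 8 metallothioneins. In bulk RNA, fewer cells that express a gene and less RNA per cell cannot be told apart.

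The metallothioneins were expressed at low to moderate levels, and MT2A and MT1X made up most of the family. MT2A stood at 22.2 and 38.4 CPM in EV, at 12.1 and 18.9 CPM with MXD3, and at 10.1 and 31.04 CPM with STIM1::MXD3 (replicates 1 and 2). MT1X stood at 9.70 and 15.2 CPM in EV, at 4.53 and 6.64 CPM with MXD3, and at 4.85 and 10.3 CPM with STIM1::MXD3. In both genes the EV library was the highest of the 3 with its replicate number, and the replicate 2 library was the higher of the pair in each group. Together they accounted for 85.2% to 90.7% of the metallothionein counts of a library (MT2A 60.0% to 66.3%, MT1X 21.3% to 28.9%).

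The other metallothioneins were lower. MT1G had 112 and 257 counts in EV, 82 and 77 with MXD3, and 59 and 250 with STIM1::MXD3. MT1E stood at 0.628 and 2.26 CPM, 0.311 and 0.837 CPM, and 0.565 and 1.91 CPM in the same order. For MT1E, as for MT1H, all 3 replicate 2 libraries lay above all 3 replicate 1 libraries. MT1H had 19 and 41 counts in EV, 5 and 34 with MXD3, and 12 and 40 with STIM1::MXD3. MT1F had 5 and 13, 1 and 9, and 1 and 42 counts, so its ratios rest on very few reads. MT1A had 3 counts over all 6 libraries and MT1M had 0, where 3 counts, the number that a count of 0 allows, correspond to between 0.0467 and 0.0589 CPM per library. The limit would be higher if a pair was counted as 2 reads. Thus MT1M was not detected at this depth, and MT1A had at most 2 counts in a library. Of 13 further metallothionein genes and pseudogenes, 6 had an entry in the tables and 0 passed the filter on low counts.

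Per kilobase of the canonical transcript, the mean level over all 6 libraries was 55.2 CPM for MT2A, 21.1 for MT1X, 7.64 for SLC30A1, 5.75 for MT1G, 2.34 for MTF1, 1.46 for MT1E, 1.09 for MT1H and 0.461 for MT1F. On this scale the libraries of MT2A (25.2 to 95.7) and MT1X (11.2 to 37.6) overlapped, as did those of SLC30A1 (3.96 to 10.6) and MT1G (2.63 to 10.4). MTF1 (2.16 to 2.61) lay within the range of MT1E (0.417 to 3.03), and MT1E overlapped MT1H (0.196 to 1.71), which overlapped MT1F (0.0366 to 1.57). Within single libraries, MT2A lay above MT1X in 6 of 6, by 2.09-fold to 3.03-fold, and MT1H above MT1F in 6 of 6, by 1.02-fold to 12.8-fold. MT1X lay above SLC30A1, and MT1G above MTF1, in 6 of 6 libraries. SLC30A1 lay above MT1G, MTF1 above MT1E, and MT1E above MT1H in 4 of 6 libraries each, so the order of these neighbours was not separated.

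Because the metallothioneins resemble each other, part of their reads may have been divided among copies. Of the 50-base words in the annotated transcripts of each gene, 18.7% for MT1X, 18.2% for MT1M, 16.4% for MT1G, 15.8% for MT1H, 7.10% for MT1E, 5.76% for MT1A, 4.48% for MT2A and 1.24% for MT1F also occurred in transcripts of another gene. How the counting treated such reads is not given in the sources used here, so single counts are uncertain and the family sum is given beside them. The sum of the 8 genes was 35.2 and 61.0 CPM in EV, 18.4 and 28.6 CPM with MXD3, and 16.8 and 48.6 CPM with STIM1::MXD3. The 2 MXD3 libraries lay below both EV libraries, whereas the STIM1::MXD3 libraries lay on both sides of the lower EV library.

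**Figure D2:**
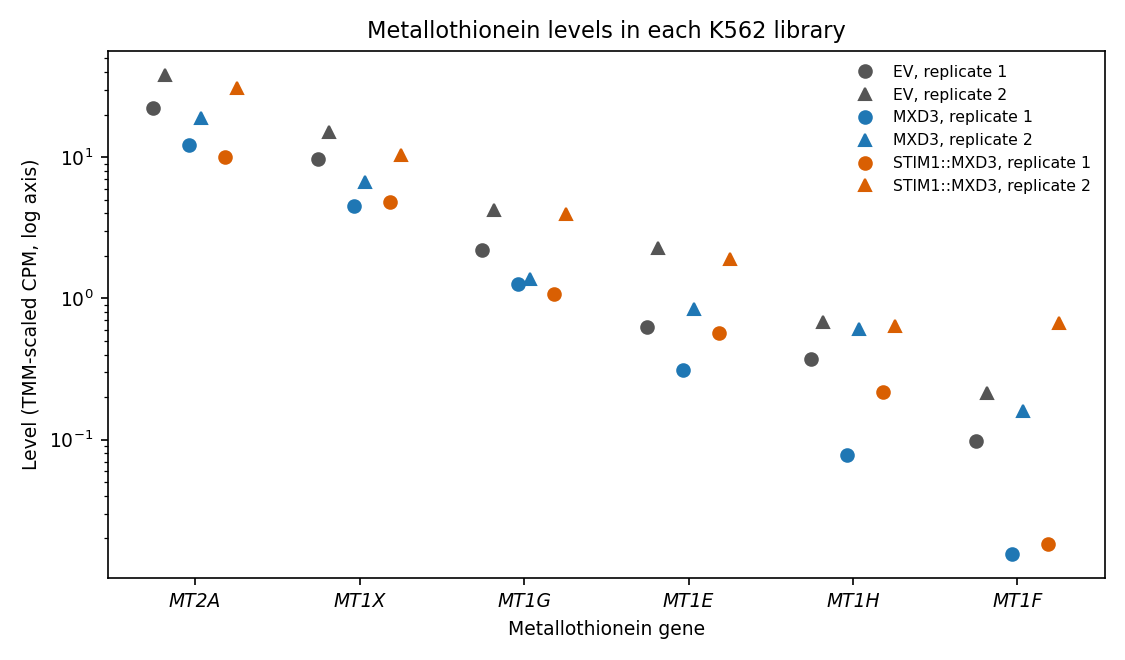
Level of the 6 tested metallothioneins in each of the 6 libraries, in TMM-scaled CPM on a log axis; colour marks the plasmid group, circles replicate 1 and triangles replicate 2. The triangle lies above the circle of the same colour for every gene and group, and MT2A spans 10.1 to 38.4 CPM.

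The first comparison, of the libraries numbered 2 with those numbered 1 within groups, asked how far the members varied between the 2 sets of transfections. The rule for the members used a difference between plasmid groups and not between replicate numbers, although the set was chosen with earlier results of these libraries known. All 6 tested metallothioneins were higher in the replicate 2 libraries and SLC30A1 was lower, in opposite directions, while no difference was detected for the sensor MTF1. With Benjamini-Hochberg adjusted p-values over all genes from the quasi-likelihood test of edgeR, 7 of the 8 tested members were called (MT1A and MT1M had too few counts to be tested), against 29.2% of all genes (13.1% higher and 16.1% lower). MT1F, among these 7, passed the filter on low counts through its replicate 2 libraries, so its call was favoured by the filter. What differed between the sets is not given in the labels. The 3 libraries of a number may have been handled together, so these p-values compare 2 sets of libraries and not independent repeats of a treatment.

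The log2 fold change of MT2A was 1.01 ± 0.15 (SE; adjusted p = 0.000141, edgeR), which is 2.02-fold. MT1X was higher by 0.76 ± 0.15 (adjusted p = 0.00112, edgeR), or 1.70-fold, and MT1E by 1.69 ± 0.33 (adjusted p = 0.00130, edgeR), or 3.22-fold. For these 3 genes the difference held in each of the 10 other settings tried, with a highest adjusted p of 0.000533, 0.0136 and 0.00988. MT1G was higher by 0.99 ± 0.28 (adjusted p = 0.0155, edgeR), MT1H by 1.67 ± 0.56 (adjusted p = 0.0357, edgeR) and MT1F by 2.86 ± 0.89 (adjusted p = 0.0232, edgeR). These 3 calls depended on single replicate pairs, because leaving out 1 library also takes its partner out of this comparison. In such fits the log2 fold change was at least 0.56 for MT1G, 1.19 for MT1H and 1.87 for MT1F. MT1F passed the filter on low counts through its replicate 2 libraries, which favours a difference in this direction. Without either STIM1::MXD3 library, MT1G changed by 0.56 to 0.57, with adjusted p-values of 0.190 and 0.209. Within the MXD3 group MT1G stood at 1.28 and 1.37 CPM, close to equal. MT1H was no longer called without any 1 of the MXD3 or STIM1::MXD3 libraries (adjusted p = 0.108 to 0.287), nor was MT1F (0.0689 to 0.367). Each of the 6 genes was higher in replicate 2 in all 3 groups, as were 28.6% of all genes. MT1E, MT1F and MT1H did not overlap between the sets, as 18.0% of all genes did not in this direction. For MT1F the filter favours both counts. The family sum was 1.73-fold higher in replicate 2 in EV, 1.55-fold with MXD3 and 2.89-fold with STIM1::MXD3.

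SLC30A1 moved the other way. It stood at 62.7 CPM in EV, 62.1 with MXD3 and 62.1 with STIM1::MXD3 in replicate 1, and at 34.4, 25.5 and 23.4 CPM in replicate 2. It was lower in all 3 groups, as were 30.2% of all genes, and the sets did not overlap, as 20.6% of all genes did not in this direction. Its log2 fold change was -1.19 ± 0.10 (adjusted p = 1.93e-06, edgeR), 2.28-fold lower, and it was called in all 10 other settings (highest adjusted p = 1.91e-05, edgeR). The replicate 1 libraries thus held more transcript of the zinc exporter and less of the metallothioneins, both known targets of MTF1. MTF1 itself stood between 17.1 and 20.7 CPM in all 6 libraries and differed by 0.02 ± 0.11 between the sets (adjusted p = 0.930, edgeR, 0.397 to 0.950 over the other settings).

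Lists of genes for zinc and copper transport and for other inducers of metallothioneins were read in the same comparison. Of the 51 tested genes in the lists outside the members, 4 were called higher and 13 lower in replicate 2, where 13.1% and 16.1% of all genes were called. Of 8 other tested ZnT genes, only SLC30A10, which mainly exports manganese, was called (-0.29 ± 0.09). The median of the list was -0.01 on the log2 scale, as against 0.0062 for all genes tested. SLC30A3 (-0.43 ± 0.21) and SLC30A8 (0.49 ± 0.53), both at low levels, had larger values with wide standard errors and were not called. Of 10 ZIP zinc importers, SLC39A3 was higher by 0.33 ± 0.08 and SLC39A10 lower (-0.24 ± 0.08), with a list median of 0.02. Of 12 genes of copper handling, the superoxide dismutase chaperone CCS (0.49 ± 0.12) and the copper importer SLC31A1 (0.29 ± 0.07) were higher and the copper pump ATP7A was lower (-0.26 ± 0.08), with a median of 0.10. Each adjusted p of the 6 called genes was between 0.00447 and 0.0269 (edgeR).

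Among 14 tested genes of the oxidative and heavy metal stress response, 1 was called higher and 5 lower in replicate 2. Of all genes, 13.1% and 16.1% were. The list median was -0.19. The cystine importer SLC7A11 was higher by 0.74 ± 0.09 (adjusted p = 2.63e-05, edgeR). The co-chaperone DNAJB1 was lower by the most among those called (-0.95 ± 0.08, adjusted p = 1.86e-06, edgeR). It was followed by GCLM, a subunit of the enzyme that starts glutathione synthesis (-0.48 ± 0.07), and by NQO1, HSPH1 and NFE2L2 (-0.37 to -0.23). Not called were TXNRD1, TXN, GCLC and SRXN1 (-0.06 to 0.11), KEAP1, SQSTM1 and OSGIN1 (-0.34 to -0.13), and HSPA1B (-1.87 ± 0.90). HMOX1, with 0 to 2 counts per library, was not tested. Of 7 genes in the list of glucocorticoid-induced genes, which also holds the receptor, 5 were lower, namely in order of size the kinase SGK1 (-1.11 ± 0.13), the phosphatase DUSP1, the transcription factor KLF9 (-0.73 ± 0.08), the receptor gene NR3C1 (-0.34 ± 0.08) and PER1 (-0.34 ± 0.09). Their adjusted p-values ran from 2.19e-05 to 0.00928 (edgeR), and the list median was -0.37. The tested genes of this list that were not called were FKBP5 (0.02 ± 0.07) and TSC22D3 (-0.37 ± 0.15). Of all genes, 16.1% were called lower. SGK1 stood at 33.5, 19.8 and 27.1 CPM in the replicate 1 libraries of EV, MXD3 and STIM1::MXD3 and at 18.4, 10.8 and 8.86 CPM in those of replicate 2.

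Other measures that moved between the sets were the erythroid markers. Of 10 such markers, 7 were called lower in replicate 2 (edgeR), against 16.1% of all genes. The largest values were those of HBA1 (-1.14 ± 0.08) and HBG1 (-0.76 ± 0.07), and the list median was -0.25. HBA2 (-0.10 ± 0.12), TAL1 (-0.02 ± 0.07) and TFRC (-0.22 ± 0.09) were not called, so the markers did not move alike. The sum of the 5 markers of other cell types was between 3.67 and 4.57 CPM in every library. The share of counts in mitochondrial protein genes was 1.08% to 2.03% in replicate 1 and 1.13% to 2.83% in replicate 2, so it did not separate the sets. The part of the erythroid difference in the metallothionein and SLC30A1 values was not tested.

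**Figure D3:**
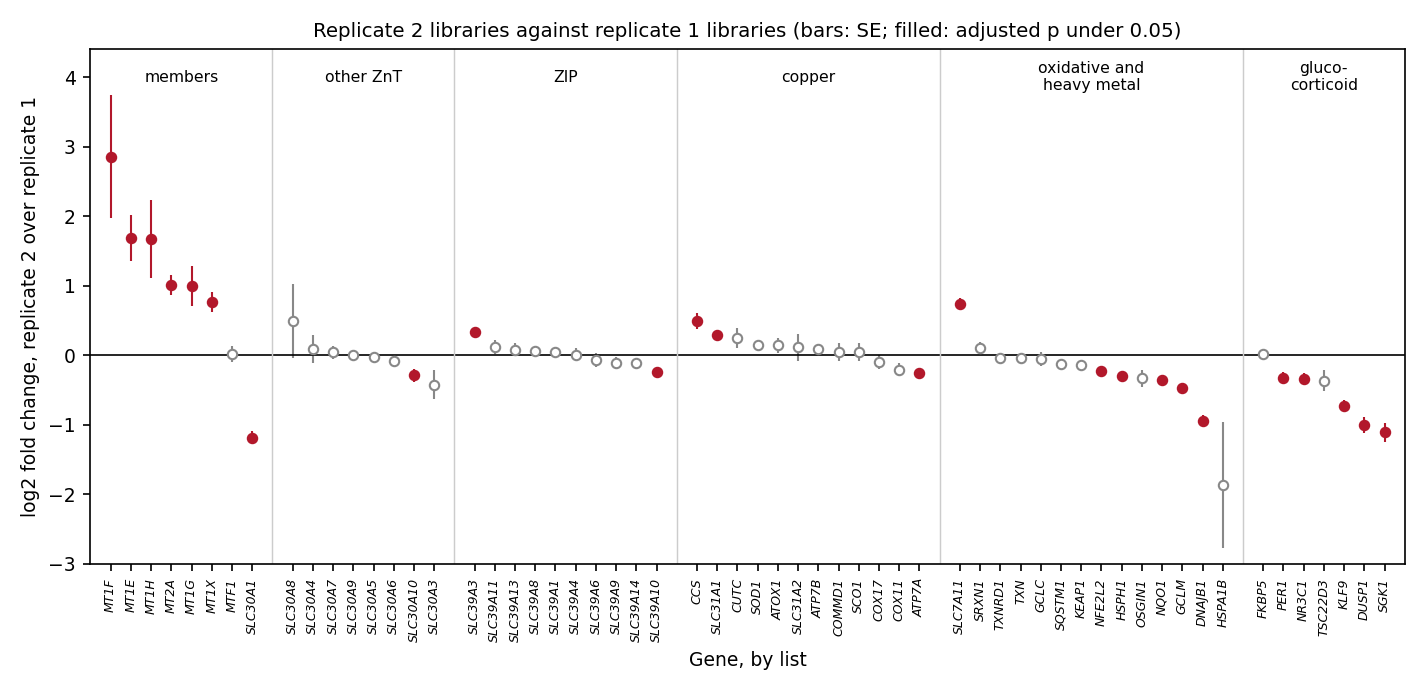
Log2 fold change of the replicate 2 libraries over the replicate 1 libraries (y axis) for the 8 tested members and the 51 tested genes of the other lists; bars are the SE and filled points passed an adjusted p of 0.05 in edgeR. The 6 metallothioneins lie above 0 and SLC30A1 at -1.19, with MTF1 at 0.02.

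The comparison of MXD3 with EV is the one from which the set was drawn, so its values are given without a test. All 6 tested metallothioneins were lower with MXD3 in both replicate pairs, as were SLC30A1 and MTF1 by small amounts and 31.5% of all genes. The log2 fold change was -1.16 ± 0.41 (SE) for MT1X, -0.96 ± 0.52 for MT2A, -1.29 ± 0.62 for MT1G, -1.34 ± 0.85 for MT1E, -0.64 ± 0.97 for MT1H and -0.87 ± 1.54 for MT1F. Both MXD3 libraries lay below both EV libraries for MT1X, MT2A and MT1G, as for 14.8% of all genes in this direction, and the other metallothioneins overlapped. With the replicate number as a block, which takes out the difference between the sets, the values were -1.15 ± 0.18 for MT1X and -0.94 ± 0.18 for MT2A, with smaller standard errors. The set was drawn from this contrast, so these counts of members are not independent of the choice. For the same reason the ranges below are descriptions, and no call of a member is given for this contrast. Within pairs, MT1X was 0.467-fold its EV level in replicate 1 and 0.437-fold in replicate 2, and MT2A 0.548-fold and 0.493-fold. The family sum was 48.1 ± 18.3 CPM (SD, n = 2) in EV and 23.5 ± 7.19 CPM (SD, n = 2) with MXD3, which is 2.05-fold lower. SLC30A1 differed by -0.15 ± 0.57 and MTF1 by -0.07 ± 0.16, and their 2 groups overlapped. Leaving out 1 library, which breaks a pair, kept MT1X between -1.47 and -0.80, MT2A between -1.33 and -0.51 and MT1G between -1.68 and -0.73. MT1E then ran from -2.23 (without MXD3 replicate 2) to -0.14 (without EV replicate 2). Without MXD3 replicate 1, MT1H was at 0.21 and MT1F at 0.031, and without MXD3 replicate 2 they were at -2.74 and -3.19. SLC30A1 ran from -0.91 without MXD3 replicate 1 to 0.35 without EV replicate 1 or MXD3 replicate 2, and MTF1 from -0.15 to 0.021.

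The comparison of STIM1::MXD3 with EV asked what the fusion changed. It uses the same EV libraries as the previous one, so the values stand side by side and are not independent. The set was drawn from MT1X being higher in these EV libraries than with MXD3, which favours lower values here. No member was called, against 0.00648% of all genes (edgeR, adjusted p = 1.00 for each of the 8), and 0 had an unadjusted p under 0.05, as did 0.953% of all genes. MT1X differed by -0.71 ± 0.41 on the log2 scale (SE) and MT2A by -0.56 ± 0.52, compared with -1.16 and -0.96 for MXD3 against EV. MT1G (-0.35 ± 0.60), MT1E (-0.23 ± 0.82), MT1H (-0.29 ± 0.96), SLC30A1 (-0.18 ± 0.57) and MTF1 (0.03 ± 0.16) differed by less than their standard errors. MT1F, with 1 count in a fusion library, differed by 1.12 ± 1.39.

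With the block, MT1X differed by -0.76 ± 0.18 (adjusted p = 0.275, edgeR), MT2A by -0.68 ± 0.18 (adjusted p = 0.357, edgeR) and SLC30A1 by -0.28 ± 0.12 (adjusted p = 0.543, edgeR). These 3 had an unadjusted p under 0.05, as did 8.5% of all genes, and 0 of the 8 members were called, against 0.0194% of all genes. MT1X was lower in both pairs, at 4.85 against 9.70 CPM in replicate 1 and 10.3 against 15.2 CPM in replicate 2, and MT2A likewise, by log2 ratios of -1.14 and -0.31. Of the 8 members, 6 were lower in both pairs, as were 25.1% of all genes, and those outside this count were MT1F and MTF1. Some of these ratios were close to equal. SLC30A1 had log2 ratios of -0.013 in replicate 1 and -0.56 in replicate 2. MT1G and MT1H each had -0.09 in replicate 2. Over the other settings the adjusted p of MT1X ran from 0.0612 (DESeq2 with the block) to 1.00 and that of MT2A from 0.0915 to 1.00. The family sum was 32.7 ± 22.4 CPM (SD, n = 2) with the fusion, 1.47-fold below EV, but without STIM1::MXD3 replicate 1 the log2 ratio of the sums was 0.014.

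**Figure D4:**
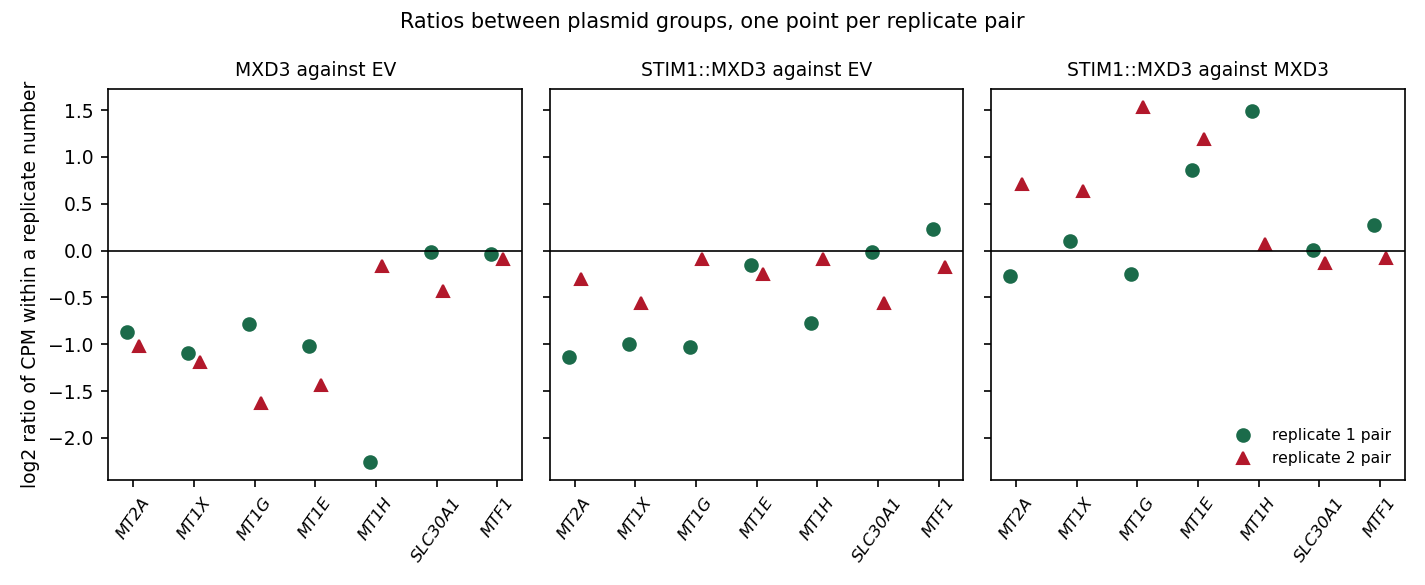
Log2 ratio of CPM between plasmid groups within each replicate number for 7 members (MT1F, with 1 count in 2 libraries, is left out); circles are the replicate 1 pair and triangles the replicate 2 pair. For MXD3 against EV all points lie below 0, and for STIM1::MXD3 against MXD3 the pairs of MT2A and MT1G lie on opposite sides of 0.

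The fusion and MXD3 were then compared directly. The MXD3 libraries are those in which MT1X was low when the set was drawn, which favours higher values with the fusion, so the tests and counts here are not independent of the choice. No member was called (0.0% of all genes, edgeR, adjusted p = 1.00 for each), and at an unadjusted p under 0.05 there were 156 genes (1.01%), of which 0 were members. The log2 difference was 0.45 ± 0.41 for MT1X, 0.41 ± 0.52 for MT2A, 0.94 ± 0.62 for MT1G, 1.12 ± 0.85 for MT1E, 0.34 ± 0.98 for MT1H and 1.99 ± 1.48 for MT1F (SE). With the block, MT1E (1.04 ± 0.40, adjusted p = 0.703, edgeR) and MT1X (0.38 ± 0.18, adjusted p = 0.760, edgeR) had an unadjusted p under 0.05, as did 6.49% of all genes, and none of the 8 was called. Thus a lower metallothionein level with MXD3 than with the fusion was not shown. Of the 8 members, 4 (MT1E, MT1F, MT1H and MT1X) were higher with the fusion in both pairs, as were 27.5% of all genes. The pairs disagreed for the most abundant gene, since MT2A was 0.831-fold its MXD3 level with the fusion in replicate 1 and 1.64-fold in replicate 2. For SLC30A1 the difference was -0.04 ± 0.57 and for MTF1 0.10 ± 0.16.

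Outside the members, 0 of the 51 tested genes of the zinc, copper, stress and glucocorticoid lists were called in any of the 3 plasmid comparisons, with or without the block in edgeR, where 0 had an unadjusted p under 0.05 without the block. With the block, the smallest p was that of the co-chaperone DNAJB1 in MXD3 against EV (-0.45 ± 0.10, adjusted p = 0.0589, edgeR). In the same fit, the autophagy receptor SQSTM1 differed by -0.28 ± 0.08 (adjusted p = 0.146, edgeR). The zinc importers SLC39A3 and SLC39A4 differed by 0.26 ± 0.09 (adjusted p = 0.228, edgeR) and 0.25 ± 0.11 (adjusted p = 0.333, edgeR). In STIM1::MXD3 against EV, SLC30A10 differed by -0.31 ± 0.11 (adjusted p = 0.492, edgeR) and the zinc exporter SLC30A5 by 0.15 ± 0.08 (adjusted p = 0.668, edgeR). Between the constructs, the cytochrome oxidase assembly factor COX11 differed by 0.27 ± 0.11 (adjusted p = 0.720, edgeR) and the copper pump ATP7B by -0.20 ± 0.09 (adjusted p = 0.760, edgeR). For MXD3 against EV with the block, the list medians were 0.07 for ZnT genes, 0.04 for ZIP genes, 0.14 for copper handling, -0.08 for oxidative and heavy metal stress and -0.18 for glucocorticoid-induced genes. Among the last, SGK1 differed by -0.77 ± 0.16 in MXD3 against EV (adjusted p = 0.0602, edgeR with the block) and by -0.65 ± 0.16 in STIM1::MXD3 against EV (adjusted p = 0.324, edgeR with the block). In the latter fit PER1 differed by -0.42 ± 0.11 (adjusted p = 0.355, edgeR) and DUSP1 by -0.48 ± 0.14 (adjusted p = 0.413, edgeR), while 2 of the 7 tested genes of this list were higher.

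**Figure D5:**
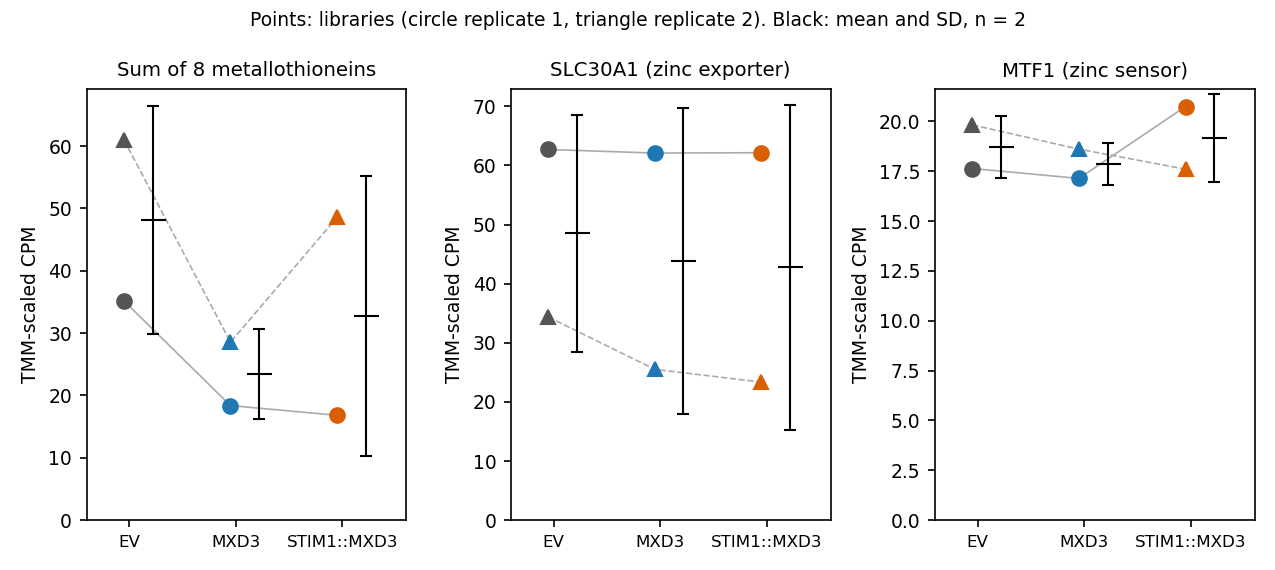
Summed level of the 8 metallothioneins, SLC30A1 and MTF1 in each library (TMM-scaled CPM, axes from 0); points are libraries, grey lines join libraries of 1 replicate number, and black marks are the mean and SD of 2 libraries. The replicate 2 libraries are the higher ones for the metallothionein sum and the lower ones for SLC30A1, while MTF1 stays between 17.1 and 20.7 CPM.

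Among 10248 genes with a mean of at least 5 CPM, those whose log2 CPM followed the metallothionein sum most closely over the 6 libraries were TSR3 (Pearson's r = 0.983), CEP131 (0.979), ITGA2B (0.979), AJUBA (0.978) and ZNF77 (0.976). The same measure was -0.62 for SLC30A1 and -0.06 for MTF1. The 6 points share 3 groups and 2 replicate numbers, so these values are a description of the libraries.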

How the data were processed

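RNA of 6 K562 libraries, 2 for each of 3 plasmid groups, was analysed. Per library, the authors deposited 1 table of raw counts under NCBI Gene IDs. Poly A RNA was sequenced from both ends and aligned to hg19, and the submitters' processing notes name HISAT2 2.2.1 and featureCounts 2.0.1. The annotation, the use of strand and the handling of read pairs and of reads with several matches are not given in the sources used here. Between 59.8% and 67.3% of the counts from 1 to 39 were even numbers, so a pair may have been counted as 2 reads. Symbols were assigned to 23696 of the 25702 identifiers (92.2%).

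Genes were kept with filterByExpr (15431 genes) and library sizes scaled with TMM. Groups were compared with the two-sided quasi-likelihood F test of edgeR 4.0.16 (R 4.3.3), in 1 fit over 6 libraries, with Benjamini-Hochberg adjustment over all genes and a threshold of 0.05. The comparison of replicate numbers added the number to that fit. Levels are TMM-scaled CPM (SD over 2 libraries). Separate cultures are known only from the study's statement, and intervals and limits from counts cover counting error only.

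The labels give the groups the same replicate numbers. Across genes, the deviations from group means of libraries with the same number correlated with r = 0.270 to 0.450 (15431 genes) and r = 0.621 to 0.792 (10250 genes whose mean CPM reached 5). Every pair thus exceeded 0.1, and the numbers were taken to pair the libraries. The fit with the number as a block is given where it changed a call or a count. Replicates of a group differed by more than sampling noise (chi-square per degree of freedom 66.5 to 129).

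The members and gene lists were chosen with earlier results of these data known. One gene was taken out of the lists and is not reported here. Named genes outside the members were those called in a comparison in edgeR and the up to 2 of each list with the smallest p. The 5 whose log2 CPM (prior count 2) followed the metallothionein sum most closely were also named. Further genes of the lists are named as not called or not tested. Other settings were DESeq2 1.42.0, RLE scaling, no filter on low counts, counts divided by 2, the 4 libraries of a comparison alone, and leaving out each library. The edgeR steps were run on simulated counts that held no difference between the replicate numbers, as a check of the code only.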

Additional observations from a re-analysis of the deposited data

Results flagged for a closer look

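Results listed here are log2 ratios of CPM that took opposite signs in the replicate pairs or in the groups, among members with at least 10 counts in every library of the comparison. Whether the pairs or groups differed was not tested. In STIM1::MXD3 against MXD3, MT2A had a ratio of -0.27 in replicate 1 and 0.71 in replicate 2, and MT1G had -0.25 and 1.54. In the same comparison SLC30A1 had 0.0013 and -0.13, and MTF1 had 0.28 and -0.08. MTF1 also changed sign in STIM1::MXD3 against EV, with 0.23 in replicate 1 and -0.17 in replicate 2. Between replicate 2 and replicate 1, MTF1 was higher in EV (0.17) and with MXD3 (0.12) and lower with STIM1::MXD3 (-0.24).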

How the results depend on the processing

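With the replicate block in edgeR, 3 genes were called in STIM1::MXD3 against EV, 45 in MXD3 against EV (1 without it) and 1 between the constructs, DESeq2 without the block called 3, 3 and 1, and DESeq2 with the block 19, 238 and 5. Without the filter on low counts 2, 1 and 1 were called. Calls of members in MXD3 against EV are not given, because the set was drawn from that contrast. DESeq2 called 3 genes of the other lists there, which are not named here, whereas edgeR called 0 with or without the block. In the other plasmid comparisons the block changed no call of a member. MT1F in STIM1::MXD3 against EV was -0.010 in DESeq2 with the block. Between the replicate numbers DESeq2 gave MT1F (3.05) no adjusted p, so it was not called there. The cause of these shifts was not tested. RLE scaling left the number of members called as it was. With halved counts, 6 members were called between the replicate numbers, and MT1F fell below the filter. Halved counts and fits of 4 libraries, which were run for the plasmid comparisons, called 0 members in STIM1::MXD3 against EV and between the constructs.

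Leaving out 1 library breaks a replicate pair. The log2 fold changes against EV with STIM1::MXD3 then ran from -1.37 to -0.27 for MT1X and -1.60 to 0.036 for MT2A. They ran from -1.37 to 0.98 for MT1E, -2.98 to 2.06 for MT1F and -1.59 to 0.30 for MT1G. For MT1H they ran from -1.27 to 0.27, for SLC30A1 from -1.05 to 0.35 and for MTF1 from -0.089 to 0.14. Those between the constructs ran from -0.21 to 0.89 for MT1X, -0.63 to 1.00 for MT2A, -0.026 to 2.00 for MT1E, -2.12 to 4.31 for MT1F, -0.31 to 1.58 for MT1G, -0.64 to 2.44 for MT1H, -0.91 to 0.73 for SLC30A1 and -0.022 to 0.21 for MTF1. The family sum ran from -1.52 to 0.014 against EV and from -0.48 to 1.05 between the constructs, and the genes called for MXD3 against EV from 1 to 2. Between the replicate numbers, 2580 to 4424 genes and 4 to 7 members were called, against 4499 and 7 with all libraries, and MTF1 ran from -0.062 to 0.16. Of the genes of the other lists, 11 to 17 were called, with 11 in the fit without STIM1::MXD3 replicate 1 and 17 with all libraries. Both of the lowest gene counts (2580 and 2902) came without a STIM1::MXD3 library. At 1 to 42 counts, MT1F and MT1H were limited by depth.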
